A study of Mus musculus with 6 samples.

Results

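Chemokines of the CC class are small secreted proteins that draw white blood cells out of the circulation and along tissue, and 8 of them were followed here together with Ccr2, the receptor that marks inflammatory monocytes, in the ventricles of mice after atrial pacing. The 9 genes are Ccl2, Ccl7, Ccl8, Ccl12, Ccl11, Ccl24, Ccl6, Ccl9 and Ccr2, out of 24239 genes in the per-mouse table. They were chosen by gene name with their values in paced and sham mice already known, so the values that compare paced with sham mice are given for them as a description and without a test. The 6 animals were male C57BL/6 mice of 8 to 10 weeks, with no transgene or deletion in the labels. In the 3 paced mice a bipolar catheter in the esophagus paced the atria once a day for 45 min, with a beat every 80 ms and slower stretches of 3 min with a beat every 120 ms on either side. There were 5 such days, a pause of 2 days and 3 more such days. The 3 sham mice had the intervention without pacing. PolyA RNA of whole ventricles was sequenced in stranded paired-end libraries, 1 per mouse, and the levels are FPKM, that is fragments counted per kilobase of transcript and scaled for the depth of the library.

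Ccl2, Ccl7 and Ccl12 are ligands of Ccr2, through which monocytes leave the bone marrow and enter injured tissue. Ccl8 is of the same protein family and in the mouse also acts on Ccr8, Ccl11 and Ccl24 are eotaxins that act on Ccr3 of eosinophils, and Ccl6 and Ccl9 act on Ccr1. In the heart, resident macrophages are a known source of several of these ligands, and cells carrying Ccr2 are the monocytes that arrive from blood and the macrophages that derive from them. In RNA of whole tissue, fewer cells of a type and less RNA per cell cannot be told apart.

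Of the 9 genes, 7 lie on chromosome 11. Ccl2, Ccl7, Ccl11, Ccl12 and Ccl8 follow one another on the plus strand within 81.2 kb (mm10 build, chr11:82035577-82116799), with 11.8 kb between the end of Ccl12 and the start of Ccl8. Since Ccl8 and Ccl11 separated the groups of mice while the 3 genes beside them did not, their sequences are shown to let a reader see how far apart they are. Exon 2, which codes for the pair of adjacent cysteines after which CC chemokines are named, is 112 bases long in Ccl8, Ccl7 and Ccl11 and 118 bases long in Ccl2 and Ccl12. The sequences run 5′ to 3′ on the plus strand of GRCm38 (mm10) with exon ends from GENCODE M21, and capitals mark the bases that are the same, with no gaps, in every gene of that length. In the first 3 exons 47 of 112 bases are the same in all 3 genes (42.0%), and in the other 2 exons 79 of 118 are the same in both (66.9%). A share over 3 genes and a share over 2 are unlike measures and are not compared. Without gaps, the cysteine codons of Ccl7 lie later in the exon than those of Ccl8 and Ccl11 and are not lined up. By pairs, identity over the aligned coding bases was 64.2 to 68.5% among Ccl8, Ccl7 and Ccl11. For Ccl2 and Ccl12 it was 67.6%.
Ccl8 exon 2, chr11:82116039-82116150: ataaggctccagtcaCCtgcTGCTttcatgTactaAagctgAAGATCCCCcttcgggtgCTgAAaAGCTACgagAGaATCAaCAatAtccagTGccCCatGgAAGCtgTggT
Ccl7 exon 2, chr11:82046518-82046629: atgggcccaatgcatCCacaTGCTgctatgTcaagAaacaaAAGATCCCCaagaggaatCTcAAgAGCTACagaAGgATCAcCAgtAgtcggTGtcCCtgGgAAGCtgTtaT
Ccl11 exon 2, chr11:82061679-82061790: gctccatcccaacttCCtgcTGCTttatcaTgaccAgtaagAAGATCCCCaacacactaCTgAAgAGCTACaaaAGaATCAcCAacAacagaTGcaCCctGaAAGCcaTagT
Ccl2 exon 2, chr11:82036483-82036600: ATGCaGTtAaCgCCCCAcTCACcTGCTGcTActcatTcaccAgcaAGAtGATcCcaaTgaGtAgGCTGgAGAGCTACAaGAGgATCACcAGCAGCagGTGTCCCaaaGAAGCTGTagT
Ccl12 exon 2, chr11:82102611-82102728: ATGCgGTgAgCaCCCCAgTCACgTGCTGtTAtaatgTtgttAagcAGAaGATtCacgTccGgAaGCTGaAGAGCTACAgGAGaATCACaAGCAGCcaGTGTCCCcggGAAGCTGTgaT

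No stretch of 50 bases in the transcripts of Ccl2, Ccl7, Ccl8, Ccl12, Ccl11, Ccl24 or Ccl6 occurs in the transcripts of another gene, so reads of that length without errors belong to 1 of them. Ccl9 shares 2.00% of its stretches of 50 bases with transcripts of other genes, and Ccr2 shares 3.73%, so a small part of their reads is less certain. Over the aligned coding bases, identity between pairs of the 8 ligands ran from 56.5% (Ccl12 and Ccl6) to 70.7% (Ccl6 and Ccl9), and that of Ccl8 and Ccl12 was 70.5%.

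The 250 bases before the start were found for 5 of the 9 genes in the RefSeq promoter table (GRCm38.p6). Those of Ccl8 and Ccl12 are shown, as the neighbours with the largest and the smallest difference between paced and sham mice, with capitals for each match to a searched motif.
Ccl8 promoter, chr11:82114935-82115184: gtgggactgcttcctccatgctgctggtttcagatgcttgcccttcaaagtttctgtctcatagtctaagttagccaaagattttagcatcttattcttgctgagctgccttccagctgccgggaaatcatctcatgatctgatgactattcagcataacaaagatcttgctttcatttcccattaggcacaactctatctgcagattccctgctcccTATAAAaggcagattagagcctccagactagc
Ccl12 promoter, chr11:82101595-82101844: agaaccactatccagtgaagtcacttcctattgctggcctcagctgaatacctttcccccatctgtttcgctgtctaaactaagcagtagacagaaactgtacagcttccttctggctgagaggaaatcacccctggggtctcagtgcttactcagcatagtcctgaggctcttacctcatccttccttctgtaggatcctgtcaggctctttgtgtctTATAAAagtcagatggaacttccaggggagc

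Both are plus strand sequences, and in both the only match was TATAAA, which starts 32 bases before the start of Ccl8 and 31 bases before that of Ccl12. The motifs searched on both strands were TATAAA, found in 13% of 27025 promoters of this length, the kappaB consensus (3.75%), TGANTCA of AP-1 (6.87%), the STAT6-type motif (5.86%) and the interferon-type motif (3.04%). The STAT6-type and interferon-type motifs can overlap within a sequence, and each was counted by itself. Of the other 3 promoters found, Ccl9 held a kappaB match 35 bases and a TGANTCA match 53 bases before the start, with 3 matches of TATAAA on either strand, while Ccl6 and Ccr2 held no match. These are matches of letters, and binding was not measured.

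The effective depth of the 6 libraries, as read from the steps of their lowest FPKM values, was 6272000 to 8908000 fragments. It is the depth by which the FPKM were scaled and may differ from the number sequenced. For the 9 genes, FPKM times effective length and depth gave a whole number of fragments within 0.131 in all 54 values, between 1 and 299 fragments, so that the number of fragments behind each level is known. In the comparison of the 11994 genes whose mean FPKM reached 1, 0% passed a limma adjusted p under 0.05 higher and 0% lower in paced mice, while 5.17% were higher and 3.69% lower at an unadjusted p under 0.05. With the libraries rescaled to the same sum those 620 higher and 442 lower genes became 969 and 148, and with centring on medians 514 and 609, so the balance of directions over all genes rests on the scaling. In 6.24% of the genes tested all 3 paced mice lay above all 3 sham mice, and in 6.97% below them. Sftpc, a surfactant protein and marker of lung, was high in pacing 2 and pacing 3. It had 0.195, 153 and 430 FPKM in pacing 1, 2 and 3 and 0.199 to 1.005 FPKM in sham mice. Hopx, from the same list, stood at 317 to 393 FPKM in all 6 mice, also in those with Sftpc at 1.005 FPKM or lower. It thus did not tell apart the libraries with high and low Sftpc. Marker genes of atrial muscle were high in most libraries and low in sham 2, where Myl7, the atrial myosin light chain, had 31.4 FPKM against 966 to 3520 FPKM in the other 5 mice.

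Ccl8 had the largest difference of the 9 genes. It stood at 12.6, 10.5 and 5.21 FPKM in the paced mice and at 1.11, 0.368 and 0.919 FPKM in the sham mice, so that the lowest paced mouse was 4.68 times the highest sham mouse and the groups did not overlap. The means were 9.44 ± 3.81 FPKM in paced and 0.800 ± 0.386 FPKM in sham ventricles (SD, n = 3 each), a difference of 2.48 on the log2(FPKM + 1) scale (SE 0.39). Behind these levels were 35, 28 and 16 fragments in paced and 3, 1 and 2 in sham mice. Summed, that is 79 against 6 fragments, or 11.7 times as many at equal depth, with an exact 95% interval of 5.14 to 32.8 that covers counting error only. The difference on the log2 scale depends on the pseudocount at so low a sham level and was 3.42 with a pseudocount of 0.1. Without pacing 1 it was 2.26, and without pacing 2 and pacing 3, the libraries with lung transcripts, 2.94.

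**Figure D1:**
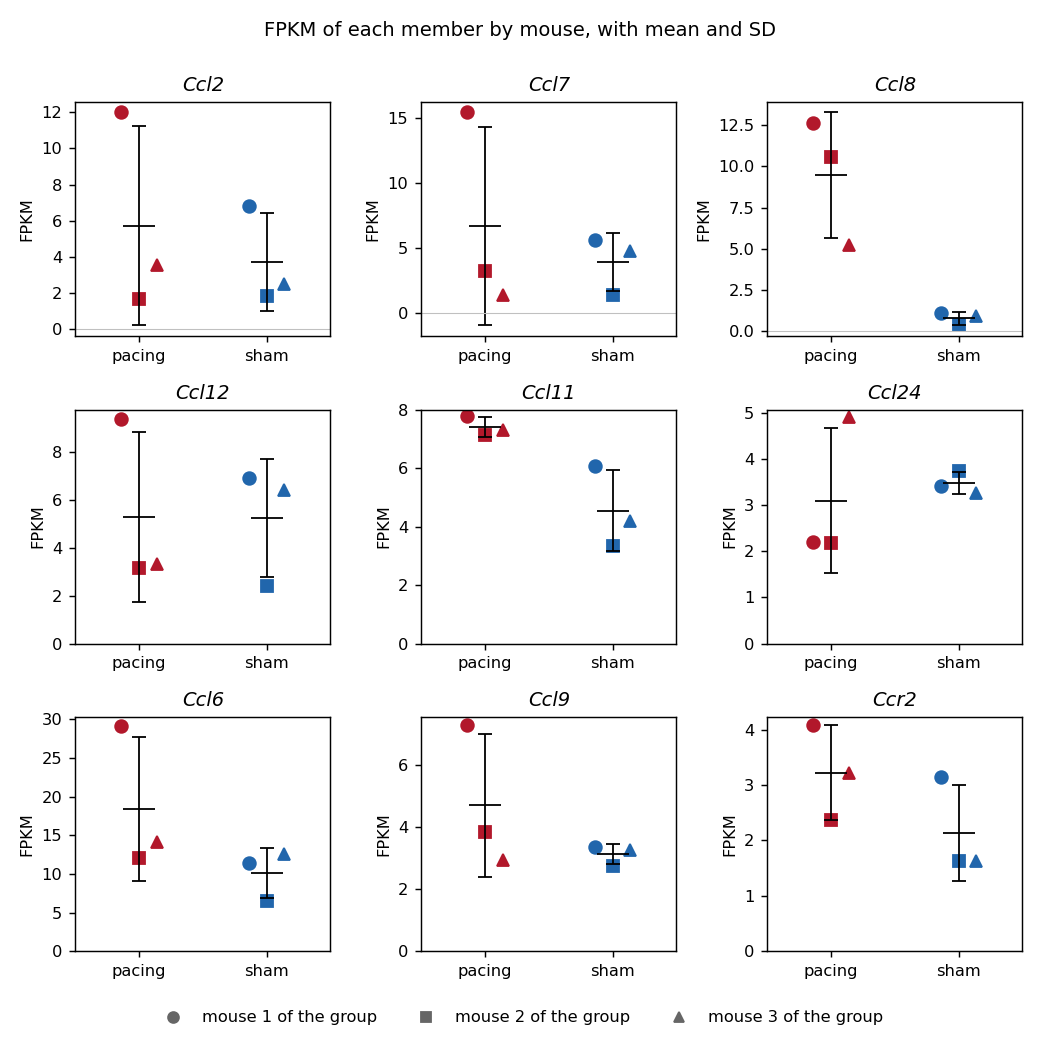
FPKM (vertical axis, from its own 0 in each panel) of the 9 genes in each paced mouse (red, left) and each sham mouse (blue, right), with circles, squares and triangles for mouse 1, 2 and 3 of a group and a black bar for the mean with its SD. Ccl8 and Ccl11 have all 3 paced mice above all 3 sham mice, and in 8 of the 9 panels pacing 1 is the highest of the 6 mice.

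Ccl8 also differed most in rank between the groups. Among the 9 genes it had the second highest mean in paced mice, between Ccl6 and Ccl11, and the lowest in sham mice, where its range lay below that of Ccr2, the next gene. All other neighbours in either order had overlapping ranges over the mice of the group, so their places are not separated. Of the summed FPKM of the 8 ligands, Ccl8 made up 13.1, 24.0 and 12.2% in the paced mice and 2.48, 1.65 and 2.43% in the sham mice. Ccl6, the most abundant ligand in both groups, kept a share of 30.4 ± 2.73% in paced and 29.2 ± 3.83% in sham mice. The share of Ccl12 was 9.79, 7.19 and 7.80% in paced and 15.4, 10.8 and 17.0% in sham mice. Out of the ligands without Ccl8 it was 11.3, 9.47 and 8.89% in paced and 15.8, 10.96 and 17.4% in sham mice, and pacing 1 then lay above sham 2.

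**Figure D2:**
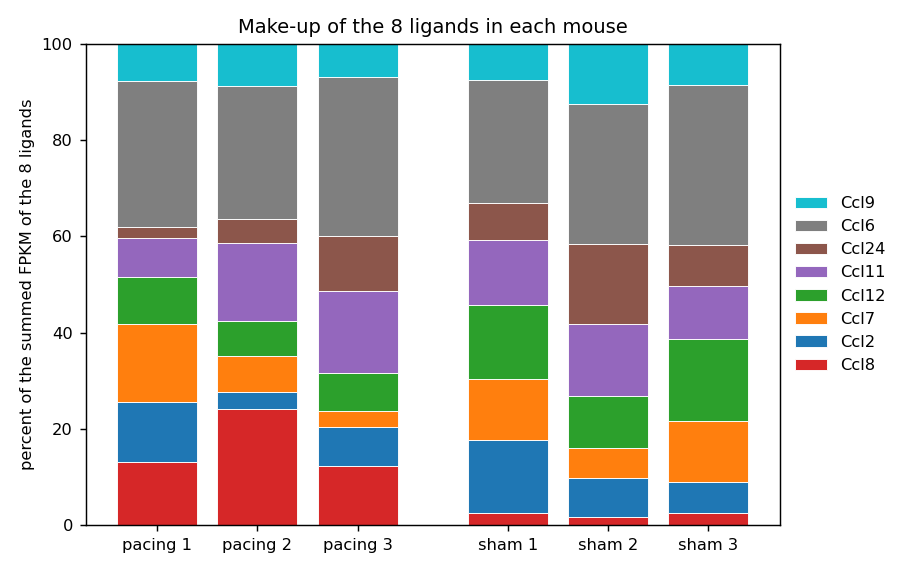
Share of each ligand (percent of the summed FPKM of the 8 ligands, stacked to 100%) in each paced mouse on the left and each sham mouse on the right. The red Ccl8 segment takes 12.2 to 24.0% in paced and 1.65 to 2.48% in sham mice, while the grey Ccl6 segment stays between 25.5 and 33.1% in all 6.

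The ligands of Ccr2 itself, Ccl2, Ccl7 and Ccl12, overlapped between the groups, and each was highest in pacing 1. Ccl2, or MCP-1, the main signal that recruits monocytes, stood at 12.0, 1.62 and 3.51 FPKM in paced and at 6.80, 1.78 and 2.49 FPKM in sham mice. Pacing 1 and sham 1 were the high mice, and the paced mouse with the lowest value lay under all sham mice. The means were 5.71 ± 5.53 and 3.69 ± 2.72 FPKM in paced and sham mice (SD, n = 3 each), with a difference of 0.34 (SE 0.82) that turned to -0.30 without pacing 1.

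Ccl7, or MCP-3, had 15.5, 3.27 and 1.42 FPKM in paced mice and 5.66, 1.40 and 4.77 FPKM in sham mice. Only pacing 1 lay outside the sham range. Its mean of 6.72 ± 7.63 FPKM in paced mice against 3.95 ± 2.25 FPKM in sham mice gave a difference of 0.29 (SE 0.94) on the log2 scale. That difference was -0.49 without pacing 1, -0.16 without sham 2 and -0.21 without both pacing 1 and sham 1. Ccl12, or MCP-5, a further Ccr2 ligand of the mouse, had 9.39, 3.15 and 3.34 FPKM in paced and 6.91, 2.40 and 6.43 FPKM in sham mice. The means of 5.30 ± 3.55 and 5.25 ± 2.48 FPKM in paced and sham mice were close, the difference of -0.03 (SE 0.58) changed sign in 6 of 13 alternatives, and it was -0.46 without pacing 1. Counts behind these 3 genes were 7 to 79 fragments per mouse, and the variance of Ccl7 between paced mice was 46.1 times that of counting alone.

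The eotaxins had unlike patterns over the mice. Ccl11, or eotaxin-1, had 7.78, 7.12 and 7.30 FPKM in paced mice and 6.07, 3.36 and 4.21 FPKM in sham mice. All paced mice lay above all sham mice, the lowest paced mouse at 1.17 times the highest sham mouse, sham 1. The means were 7.40 ± 0.340 and 4.55 ± 1.39 FPKM in paced and sham mice (SD, n = 3 each), a difference of 0.63 (SE 0.21) that ran from 0.47 without sham 2 to 0.82 without sham 1. With 50 to 59 fragments per paced mouse, the variance between paced mice was 0.114 times that of counting alone, so they lay closer together than counting gives on average.

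Ccl24, or eotaxin-2, made by macrophages and lying on chromosome 5, had 2.205, 2.185 and 4.90 FPKM in paced and 3.42, 3.73 and 3.26 FPKM in sham mice. Pacing 1 and pacing 2 lay below all sham mice and pacing 3 above them, the one gene of the 9 in which pacing 3 was highest. Its means were 3.10 ± 1.56 FPKM in paced and 3.47 ± 0.236 FPKM in sham mice, a difference of -0.19 (SE 0.30) that stayed negative in each alternative run and reached -0.48 without pacing 3. Ccr3, the receptor for both eotaxins, was listed at the floor of 0.01 FPKM in all mice but pacing 1, where it stood at 0.0398 FPKM.

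The Ccr1 ligands were the most deeply counted of the 8. Ccl6, a chemokine of mouse macrophages, had 29.1, 12.1 and 14.1 FPKM in paced and 11.4, 6.49 and 12.5 FPKM in sham mice, from 65 to 299 fragments each. Pacing 2 lay just below sham 3, so that the groups overlapped by 1 mouse on either side. The means were 18.5 ± 9.31 FPKM in paced and 10.1 ± 3.22 FPKM in sham mice, a difference of 0.75 (SE 0.46), or 0.38 without pacing 1. Ccl6 was the only gene of the 9 called in the authors' deposited table, with a log2 fold change of 0.86 and a q-value of 0.003275. That table calls 1.23% of its genes higher and 0.152% lower in paced mice, and its q-value for Ccl8 is 0.101944 at a log2 fold change of 3.56. The authors' interval for Ccl6 in mm10 (chr11:83582061-83623693) is wider than the annotated gene (chr11:83587886-83593087), so its FPKM may count more than Ccl6 transcripts.

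Ccl9, the neighbour of Ccl6, had 7.31, 3.86 and 2.96 FPKM in paced and 3.38, 2.76 and 3.25 FPKM in sham mice. Pacing 1 and pacing 2 lay above all sham mice and pacing 3 within them. The means were 4.71 ± 2.30 and 3.13 ± 0.326 FPKM in paced and sham mice, and the difference of 0.40 (SE 0.33) was 0.09 without pacing 1. Ccr1, the receptor of both, stayed under a mean of 1 FPKM, with 1.30, 0.581 and 0.800 FPKM in paced and 1.20, 0.475 and 0.957 FPKM in sham mice.

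The receptor Ccr2 had 4.08, 2.37 and 3.21 FPKM in paced mice and 3.14, 1.63 and 1.63 FPKM in sham mice. Sham 1 was above pacing 2 and the only sham mouse within the paced range. The means were 3.22 ± 0.855 and 2.13 ± 0.874 FPKM in paced and sham mice, a difference of 0.44 (SE 0.28) with a range of 0.30 to 0.66 when each mouse was left out in turn, from 35 to 113 fragments per mouse. Ccr8, at which mouse Ccl8 acts, was listed at the floor in 5 mice and stood at 0.128 FPKM in sham 2.

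Taking the 9 genes as a list, 7 had a positive and 2 a negative difference, with a median of 0.40 on the log2(FPKM + 1) scale. Over all genes tested the median was -0.01 and 48.1% were positive. All 9 passed the filter, Ccl8 only through its level in paced mice, since its sham mean lay under 1 FPKM. In 2 of the 9 genes the groups did not overlap, both higher in paced mice, against 6.24% of all genes tested, and 0 of the 9 lay lower without overlap, against 6.97%. As the genes were chosen on this contrast, nothing is read from these counts.

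**Figure D3:**
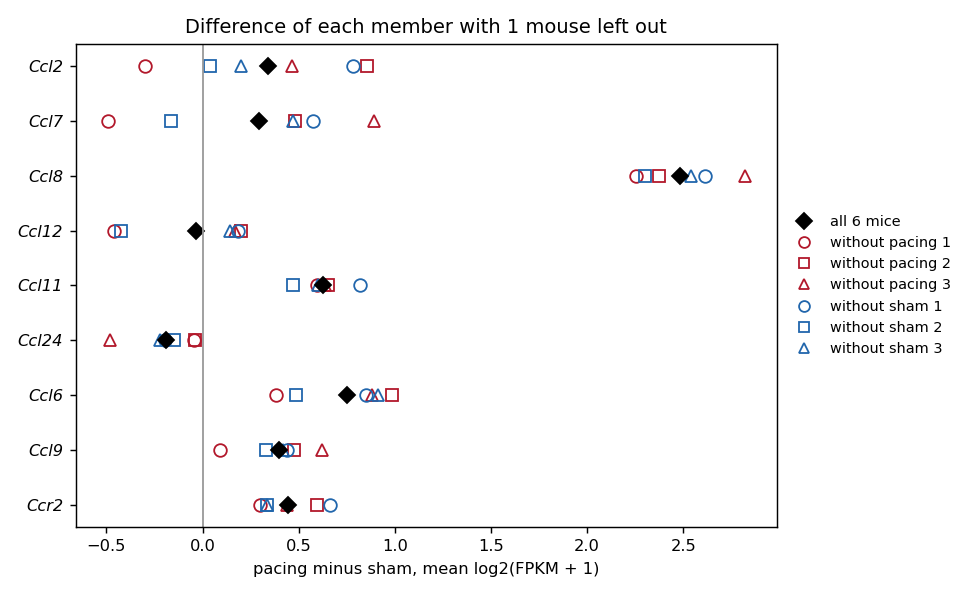
Difference of mean log2(FPKM + 1), pacing minus sham (horizontal axis), for each of the 9 genes, with all 6 mice (black diamond) and with 1 mouse left out (open red for a paced, open blue for a sham mouse, shapes as mouse 1, 2 and 3). Ccl8 stays between 2.26 and 2.82 and Ccl11 between 0.47 and 0.82, while Ccl2 and Ccl7 are at -0.30 and -0.49 without pacing 1.

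Variation within the groups was shared by most of the genes. Pacing 1 was the highest of the paced mice in 8 of the 9 genes, Ccl24 being the exception, against 34% of all genes tested. In those 8 it was also the highest of all 6 mice (14.8% of all genes). The choice of genes with the contrast known favours that, so nothing is read from the latter share. Sham 2 was the lowest sham mouse in 8 of the 9 (33.5% of all genes), and sham 1 the highest sham mouse in 7 (33.2%). The summed FPKM of the 8 ligands was 95.9, 43.8 and 42.8 in paced mice and 44.8, 22.3 and 37.9 in sham mice, so that sham 1 lay above both pacing 2 and pacing 3. Without Ccl8 the sums were 83.3, 33.3 and 37.6 FPKM in paced and 43.7, 21.9 and 37.0 FPKM in sham mice. The difference of the group means in FPKM was smaller than the SD of the paced mice in all genes but Ccl8, Ccl11 and Ccr2.

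Among the other ligands and receptors of the class no gene passed the test. Of 14 further CC ligands with deposited values, 4 were tested, and 0 passed the limma adjusted p or an unadjusted p under 0.05. All 4 differences were positive (median 0.35). Ccl5, or RANTES, a ligand that attracts T cells and monocytes, had 5.10, 1.42 and 1.23 FPKM in paced and 3.15, 1.04 and 0.869 FPKM in sham mice, with pacing 1 and sham 1 again high (log2 difference 0.35, SE 0.59, limma adjusted p = 0.846). Ccl19, a Ccr7 ligand, averaged 4.04 ± 0.533 FPKM in paced and 3.17 ± 1.59 FPKM in sham mice (limma adjusted p = 0.763). Ccl25 averaged 1.54 ± 0.661 and 0.965 ± 0.438 FPKM in paced and sham mice (limma adjusted p = 0.708), and Ccl27a, the most abundant of them, 11.4 ± 3.15 and 10.9 ± 3.16 FPKM (limma adjusted p = 0.964).

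Of 14 further CC receptors and scavengers, 5 were tested, with 0 at a limma adjusted p under 0.05, 1 higher at an unadjusted p under 0.05, and a median difference of 0.06. That gene was Ackr2, an atypical receptor that takes up and degrades inflammatory CC chemokines, Ccl2 among them. It had 2.25, 1.09 and 1.50 FPKM in paced and 0.797, 0.846 and 0.897 FPKM in sham mice, without overlap between the groups (log2 difference 0.48, SE 0.19, limma adjusted p = 0.523). Ackr4, a scavenger of Ccl19 and Ccl25, averaged 6.34 ± 0.759 FPKM in paced and 5.69 ± 0.215 FPKM in sham mice (limma adjusted p = 0.769). Ackr3, a scavenger of Cxcl12, averaged 42.3 ± 2.37 FPKM in paced and 43.4 ± 4.11 FPKM in sham mice (limma adjusted p = 0.948).

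Chemokines of the other classes and their receptors gave 12 tested genes, of which 3 were higher and 1 lower at an unadjusted p under 0.05 and 0 passed limma's adjusted p. Cxcl12, which retains blood cell precursors in the marrow, averaged 54.5 ± 5.36 FPKM in paced and 60.8 ± 6.72 FPKM in sham mice (limma adjusted p = 0.727), and the platelet chemokine Pf4 37.9 ± 9.14 and 36.5 ± 4.14 FPKM (limma adjusted p = 0.976). Among 21 tested inducers and transcription factors of chemokine genes 4 were higher and 0 lower at an unadjusted p under 0.05 (median 0.14). Nfkbia, an inhibitor of NF-kappaB that is itself induced by it, had 30.2, 32.2 and 31.1 FPKM in paced and 25.9, 28.7 and 27.6 FPKM in sham mice, without overlap (log2 difference 0.18, SE 0.05, limma adjusted p = 0.562). Tnfrsf1a, a receptor for tumour necrosis factor, averaged 31.1 ± 0.602 and 29.4 ± 5.25 FPKM in paced and sham mice (limma adjusted p = 0.857). Of 16 tested genes that carry the signal of chemokine receptors 0 passed either threshold. Gnai2, their main G protein subunit, averaged 134 ± 0.615 FPKM in paced and 135 ± 5.35 FPKM in sham mice (limma adjusted p = 0.992), and the small GTPase Rac1 105 ± 4.65 and 102 ± 5.08 FPKM (limma adjusted p = 0.907).

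Markers of the cells that carry or make these proteins were compared in the same mice. Of 30 tested monocyte and resident macrophage markers 29 had a positive difference (median 0.34), 8 were higher and 0 lower at an unadjusted p under 0.05, and 0 passed limma's adjusted p. The 18 monocyte markers summed to 330 to 461 FPKM in paced and 195 to 333 FPKM in sham mice. Most of that sum was Lyz2 alone, at 154 to 331 FPKM over the 6 mice. The 19 resident macrophage markers summed to 521 to 746 FPKM in paced and 378 to 531 FPKM in sham mice. None of either list was at the floor in every mouse, and Napsa, among the monocyte markers, is on the lung list too. Sham 1, the sham mouse with the highest ligands, had the highest sum of the sham mice in both lists, and sham 2 the lowest.

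Single markers of monocytes differed in pattern. Ly6c2, which defines classical monocytes, had 1.37, 1.43 and 1.59 FPKM in paced and 1.21, 3.00 and 1.25 FPKM in sham mice, highest in sham 2 (limma adjusted p = 0.894). Plac8, another monocyte gene, had 6.78, 2.69 and 4.45 FPKM in paced and 3.62, 0.958 and 1.50 FPKM in sham mice (limma adjusted p = 0.518), in the same order of the 6 mice as Ccr2. Lyz2, lysozyme of myeloid cells, had 305, 240 and 331 FPKM in paced and 254, 154 and 201 FPKM in sham mice (limma adjusted p = 0.492). Hp, haptoglobin, had 87.7, 34.0 and 34.9 FPKM in paced and 20.3, 2.15 and 1.35 FPKM in sham mice without overlap (log2 difference 3.15, SE 1.09, limma adjusted p = 0.389), and is known from fat and liver as well as from monocytes.

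Among resident macrophage genes, Lyve1 averaged 18.0 ± 3.23 FPKM in paced and 13.1 ± 2.53 FPKM in sham mice (limma adjusted p = 0.510), and Timd4 2.24 ± 0.803 and 1.95 ± 0.445 FPKM (limma adjusted p = 0.900). C1qb, a complement subunit made by macrophages, averaged 102 ± 41.5 FPKM in paced and 72.6 ± 19.7 FPKM in sham mice (limma adjusted p = 0.691), and Gas6 102 ± 1.73 and 88.4 ± 10.7 FPKM (limma adjusted p = 0.585). Of 13 eosinophil and mast cell markers with deposited values, 5 were tested, 2 of them higher at an unadjusted p under 0.05, and their sum was 20.2 to 25.8 FPKM in paced and 12.1 to 21.2 FPKM in sham mice. The tested ones named here are of mast cells: Mcpt4 had 5.71, 5.49 and 5.18 FPKM in paced and 4.35, 3.69 and 2.90 FPKM in sham mice (log2 difference 0.49, SE 0.14, limma adjusted p = 0.399), and Cma1 averaged 5.15 ± 1.04 and 4.15 ± 1.17 FPKM (limma adjusted p = 0.727). The eosinophil markers were near 0, with Epx at the floor in every mouse and Siglecf between 0.0501 and 0.110 FPKM in paced mice and at the floor in sham mice. Neutrophil markers, whose sum ran from 4.18 to 41.6 FPKM in paced and from 2.97 to 5.80 FPKM in sham mice, were highest in pacing 1, with S100a9 at 23.6, 1.46 and 5.96 FPKM in paced and 2.16, 0.715 and 2.21 FPKM in sham mice (limma adjusted p = 0.578). Lymphocyte markers, of which 2 were tested and 0 passed either threshold, summed to 6.03 to 15.1 FPKM in paced and 5.04 to 10.6 FPKM in sham mice.

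**Figure D4:**
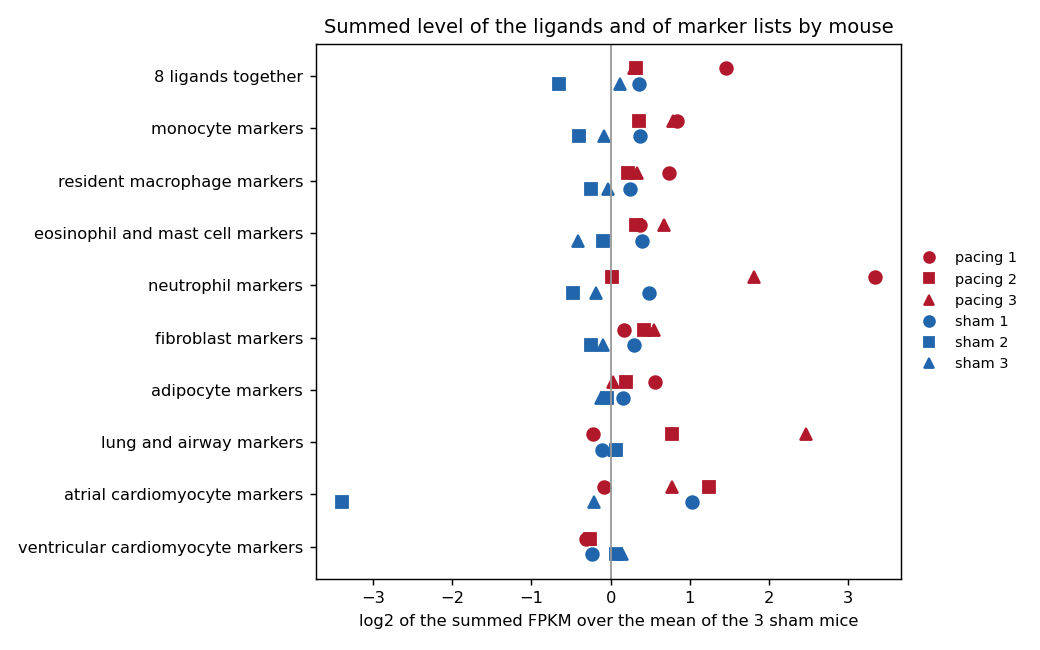
Summed FPKM of the 8 ligands and of 9 marker lists in each mouse, as log2 of the ratio to the mean of the 3 sham mice (horizontal axis), with paced mice in red above sham mice in blue and shapes for mouse 1, 2 and 3. The ligands, monocyte and macrophage markers have pacing 1 as the highest and sham 2 as the lowest mouse, whereas lung markers are highest in pacing 3 and atrial markers lowest in sham 2. Lyz2 makes up most of the monocyte sum and Fabp4 most of the adipocyte sum.

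Markers of fat, fibroblasts, lung, mesothelium, atrium and ventricular muscle were compared as well. The 11 tested adipocyte markers had a median difference of 1.75, with 7 higher at an unadjusted p under 0.05, and their sum was 1980 to 2862 FPKM in paced and 1784 to 2167 FPKM in sham mice. Adipoq, adiponectin of fat cells, had 72.8, 36.2 and 28.7 FPKM in paced and 27.0, 2.14 and 1.94 FPKM in sham mice (log2 difference 2.77, SE 1.14, limma adjusted p = 0.428). Fabp4 and Pnpla2, the most abundant of these markers, had smaller differences of 0.03 and 0.20 (limma adjusted p = 0.964 and 0.744). Fabp4 alone, at 1502 to 1951 FPKM, made up most of the adipocyte sum in each mouse. All 15 fibroblast markers had positive differences (median 0.54), 10 of them at an unadjusted p under 0.05, with sums of 2392 to 3104 FPKM in paced and 1789 to 2596 FPKM in sham mice. Of 10 tested lung markers 8 were higher at an unadjusted p under 0.05 (median 2.47), with sums of 321 to 2083 FPKM in paced and 348 to 394 FPKM in sham mice. Hopx, the most abundant of them, had a negative difference. It stood at 317, 324 and 349 FPKM in paced and 342, 393 and 384 FPKM in sham mice (limma adjusted p = 0.624). Most of the lung sum of pacing 1 and of the sham mice was thus Hopx, and the sum in those mice is not read as lung tissue. The 7 mesothelial markers had a median of 0.81 and the 10 atrial markers one of 1.27, while the 9 ventricular muscle markers were all lower (median -0.22), 2 of them at an unadjusted p under 0.05. In each of these lists 0 genes passed limma's adjusted p, and the part of fat, fibroblasts, lung, mesothelium or atrium in the levels of the chemokines was not tested.

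The genes most like Ccl8 over the 6 mice were sought among 160 genes with an SD of at least 0.5 times that of Ccl8, by the root mean square difference of log2(FPKM + 1) after each gene's own mean was taken off. They were Tmem45b (0.53), C4b (0.57), Serpina3n (0.58), Itih4 (0.59) and Ces1f (0.60), where the SD of Ccl8 itself was 1.43. C4b, complement component 4, had 17.7, 15.1 and 13.3 FPKM in paced and 8.51, 1.96 and 3.45 FPKM in sham mice. The paced mice had the same order as in Ccl8, which picking genes for likeness favours. Of the other 8 genes described, Ccl6 was nearest to Ccl8 (0.94). The genes most like Ccr2, among 3118, were Chp2 (0.04), Ugdh (0.05), Plek (0.08), 4930404N11Rik (0.10) and Mgst1 (0.10), against an SD of 0.39 for Ccr2. Plek, pleckstrin of white blood cells and platelets, had 3.66, 1.99 and 3.21 FPKM in paced and 3.11, 1.67 and 1.70 FPKM in sham mice. Ccl11, at 0.19, was the nearest of the 8 ligands to Ccr2, and with 6 mice that share their library among all genes these distances are a description only.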

How the data were processed

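Ventricular polyA RNA of 3 paced and 3 sham mice was read from both ends, 151 bases each, per the labels' protocols. Per the submitters' processing notes, the tools were Cufflinks and Cuffdiff, TopHat2 2.1.0, Bowtie2 2.2.6 and FastQC 1.0.0, with mm10. The strand setting and the annotation used are not given here, so overlapping antisense reads were not separated. The authors deposited 1 FPKM value per gene and mouse, with 0.01 where no fragment is reported. They also deposited a comparison table with, for each gene, the FPKM of either group, their log2 fold change (pacing over sham), the q-value and the call, which is made at a q-value under 0.05, per the file headers and values. Cacna2d1, whose estimate failed in sham 2, was left out.

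The 9 members and the 16 gene lists were chosen with earlier results of these data known. Genes whose mean FPKM reached 1 were fitted in R 4.3.3 with limma 3.58.1, on log2(FPKM + 1) values (eBayes with a trend, group only). The tests were two-sided, and Benjamini-Hochberg adjusted p-values cover all 11994 genes tested. The scale understates changes of low genes. SEs are from the spread within each group. Besides the members, the rule named the called genes of each list. Where none was called, it named 3 genes of each CC list by smallest p and the most abundant one, 2 of each other list by mean FPKM, and the 5 genes most like Ccl8 and Ccr2. Dcn, Gsn and others so taken are not described, and Ccr1, Ccr3, Ccr8, Sftpc, Ly6c2, Plac8, Lyve1, Timd4, Epx, Siglecf, Wfdc17 and Adipoq were named after their values were seen.

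Depth was read from 95 values under 10 fragments, out of 279 genes with 1 exon. The depths, and the 166 bases taken off each length, were set to bring these values closest to whole numbers. That 100% of them were whole within 0.05 of a fragment is therefore no separate check. Transcript lengths came from GENCODE M21, with ends moved to the deposited interval, or to RefSeq for Ccl6. The script was tested on simulated data. The series design describes separate animals, and no pair of libraries shared more than 0.0135% of values above the floor. Same-numbered mice did not deviate together (r = -0.125, -0.0225 and -0.0201 across genes), so the numbers were not used as pairs. Alternatives were other pseudocounts, filters, scalings and variance models, a replicate block, each mouse left out, and the fit without pacing 2 and pacing 3. The fit without pacing 1 and sham 1 was added after seeing the data. Promoters came from RefSeq (GRCm38.p6) and matched 5 of 9 members by symbol. Some results are not reported here.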

Additional observations from a re-analysis of the deposited data

How the results depend on the processing

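Counts of called genes changed most when a mouse was left out. Of all genes, 0 passed limma's adjusted p with all 6 mice, 6 without a filter and 0 to 100 with each mouse left out in turn (100 without sham 1, 8 without pacing 1 and 1 without pacing 3). Without pacing 1 and sham 1, added after seeing the data, 230 passed, 220 higher and 10 lower in paced mice. Of the monocyte and macrophage markers 0 passed with all mice, 0 to 2 with each mouse left out (Fn1 and Hp without sham 1) and 4 without pacing 1 and sham 1 (Chil3, Fn1, Hp and Napsa). The paced mice left in that last fit are pacing 2 and pacing 3, the libraries with lung transcripts, and Napsa is on the lung list as well. Chil3 had 0.901, 2.73 and 9.73 FPKM in pacing 1, 2 and 3, highest in pacing 3 like Sftpc. The part of lung in these calls was not tested. Of the other CC ligands and receptors 0 passed under each alternative run. With a replicate block, although the numbers do not pair the mice, 7 of all genes and 1 marker (Hp) passed. The cause of these changes was not tested.

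The members whose groups did not overlap numbered 2 with all mice, 3 after rescaling to the same sum (Ccl6 besides Ccl8 and Ccl11), and 2 to 4 with each mouse left out. The 4 were Ccl11, Ccl6, Ccl8 and Ccr2 without pacing 2, and Ccl11, Ccl24 (lower), Ccl8 and Ccl9 without pacing 3. Of all genes, 13.2% did not overlap in either direction with all mice, 13.9% after rescaling and 22.1 to 31.8% with a mouse left out. Without pacing 2 and pacing 3, where 1 paced mouse is left, 9 of 9 members and 48.3% of all genes did not overlap, and 8 members and 22.6% of all genes were higher. Of 117 recomputed member differences 111 moved by under 1 SD. The other 6 were Ccl8 at 3.42 with a pseudocount of 0.1 and, without pacing 2 and pacing 3, Ccl2 at 1.62, Ccl7 at 1.86, Ccl12 at 0.83, Ccl6 at 1.48 and Ccl9 at 1.01. Ccl12 changed sign in 6 of 13 alternatives, Ccl7 in 3 and Ccl2 in 1. The authors' deposited table calls Ccl6 alone at a q-value under 0.01 too. With 3 mice a group and 1 to 3 fragments of Ccl8 per sham mouse, the size of its difference is loosely set by these data.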

Other observations

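Serpina3n, an acute phase inhibitor of proteases, Itih4, a plasma protein, Ces1f, a carboxylesterase, and Tmem45b were the other genes whose level over the 6 mice lay nearest to that of Ccl8. Serpina3n had 17.5, 12.98 and 10.3 FPKM in paced mice and 5.54, 3.70 and 4.32 FPKM in sham mice. Itih4 had 5.78, 3.46 and 2.79 FPKM in paced and 1.497, 0.423 and 0.831 FPKM in sham mice. In both, as in Ccl8, pacing 1 was highest, pacing 3 was the lowest paced mouse and sham 2 the lowest of all. Picking genes for likeness to Ccl8 favours such a shared order, so it is no separate finding. Itih4 and Ces1f reached the filter only through paced mice, with sham means of 0.917 and 0.300 FPKM. Ces1f had 3.68, 2.07 and 1.67 FPKM in paced and 0.879 FPKM in sham 1, and was listed at the floor of 0.01 FPKM in sham 2 and sham 3. Tmem45b had 10.0, 8.61 and 3.27 FPKM in paced and 3.36, 0.180 and 0.452 FPKM in sham mice, and sham 1 lay above pacing 3.

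Genes nearest to Ccr2 had small steps between mice. Mgst1, a microsomal glutathione transferase, had 129, 92.8 and 110 FPKM in paced and 111, 74.8 and 82.8 FPKM in sham mice. Ugdh, which makes the sugar precursor of hyaluronan, had 12.8, 7.99 and 9.96 FPKM in paced and 10.47, 6.24 and 6.59 FPKM in sham mice. Wfdc17, a secreted protein of mouse myeloid cells that lies in the Ccl9 and Ccl6 region of chromosome 11, had 49.6, 14.1 and 25.2 FPKM in paced and 21.1, 10.1 and 12.5 FPKM in sham mice (limma adjusted p = 0.597), with pacing 1 highest as in both of those ligands.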
